A study of Saccharomyces cerevisiae with 22 samples.

Results

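The genes described here are 31 genes of Saccharomyces cerevisiae that take up sulphate and methionine, reduce sulphate, build methionine, cysteine and S-adenosylmethionine, or regulate those steps. They were chosen by gene symbol and role, and each of the 31 symbols matched 1 of the 6388 gene probes. Every mutant strain has an alanine at 1 position of a core histone. In HHT2, a gene of histone H3, the mutants were hht2-Q5A, hht2-R40A, hht2-G44A, hht2-R53A, hht2-N108A and hht2-L109A, and their control was hht2-wt. In HHF2, a gene of histone H4, the mutants were hhf2-K44A, hhf2-V81A and hhf2-Y98A, and their control was hhf2-wt. All 11 strains were grown from 2 independent colonies each (cultures a and b) in synthetic complete medium with glucose, so the medium held amino acids. Each culture was hybridised on its own 2-colour array beside 1 common wild-type reference RNA, which gave 22 arrays. The labels name BY4742 as the background of both channels, and name no further allele.

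Yeast takes up sulphate, activates it with ATP, reduces it to sulphite and then to sulphide, and joins the sulphide to a carbon chain made from homoserine, which gives homocysteine. Homocysteine is methylated to methionine or passed to cysteine by transsulphuration, and methionine is turned into S-adenosylmethionine, the methyl donor of the cell and also of histone methylation. The pathway is known for its regulation by the activator Met4, which sits on DNA through partner proteins and is held back by the ubiquitin ligase subunit Met30 when sulphur is plentiful.

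All strains share 1 feature that touches the pathway. MET17 (not among the 31 genes) encodes the enzyme that joins sulphide to O-acetylhomoserine, and its log2 ratio of strain over reference lay between -5.33 and -4.37 (median -4.64) on all 22 arrays, both controls included. The ratio also differed from 0 on all 22 arrays at URA3 (3.66 to 4.56), CAN1 (-4.18 to -3.21) and TRP1 (-3.60 to -2.90), so strain and reference RNA differed at these genes although the labels give 1 background for both. The MET17 signal was 70.4 to 156 for the strains, against 1544 to 4595 for the reference. Comparisons of a mutant with its control are therefore made between strains that all had this low level, and the part of MET17 in any result was not tested. The median signal of an array over all gene probes ran from 297.4 to 803.4 for the strain, and from 285.5 to 703.4 for the reference. Of the 31 genes, 30 were above local background in both channels on all 22 arrays, and 0 were saturated.

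Values below are log2 ratios of strain over reference, given for cultures a and b in that order, and differences are log2 fold changes of mutant over control ± SE with 2 cultures on each side. Because each array was normalised on its own, a change is measured against most other genes of that array. A gene counts as called at a Benjamini-Hochberg adjusted p below 0.05 over all 6388 probes in a limma fit. Whether arrays of mutant and control overlap is described mostly for called genes, and adds no support to a call. The sign of every change rests on the dye labels of the samples, because the series text gives the opposite dye order, and the opposite order would turn all signs alike. The 6 H3 mutants share 1 control and the 3 H4 mutants share another, so their comparisons are not independent. In the main fit the p-values rest on the spread between the 2 colonies of a strain, pooled over all 22 arrays and moderated by limma. A dye term first removes the shift between cultures a and b that the strains share. The p-values are therefore not a measure of the spread within the compared strains alone.

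At least 1 of the 31 genes was called in 7 of the 9 mutants, in both directions in 6 of them. In hht2-Q5A 14 of the 31 genes rose and 0 fell (45.2% of the members), while 7.70% of all probes were called higher and 11.2% lower. With print-tip loess, and also on the authors' value table, the split in hht2-Q5A was 16 higher and 1 lower. The median change of the 31 genes was 0.24 in hht2-Q5A, against 0.00 over all probes. The count of 14 depended on single arrays: it was 5 without hht2-Q5A a, 8 without hht2-wt b, 9 without hht2-wt a and 11 without hht2-Q5A b, and it was 8 with no dye term and 8 with only the 4 arrays of the comparison. In hht2-R40A 3 rose and 2 fell, where 9.80% of all probes were called higher and 4.95% lower. Those 5 are 16.1% of the members, near the 14.7% of all probes called in either direction, and they were 2 without hht2-R40A b and 3 without hht2-R40A a or hht2-wt b. On the authors' value table that split was 6 higher and 2 lower, and with print-tip loess 5 and 2.

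In hht2-G44A 10 rose and 8 fell, beside 23.9% of all probes higher and 22.4% lower. In hht2-N108A 4 rose and 8 fell, beside 16.6% higher and 12.0% lower, and on the value table the split was 8 and 8. In hhf2-K44A 8 rose and 7 fell (15.9% of probes higher, 13.6% lower). In hhf2-V81A 10 rose and 7 fell (16.8% higher, 17.1% lower), and in hhf2-Y98A 6 rose and 6 fell (13.9% higher, 16.7% lower). With each chromosome centred on its own median, 7 rose and 5 fell in hhf2-K44A, and 8 rose and 8 fell in hhf2-V81A. The shares of all probes are without that centring. The shares in these 5 mutants ran from 38.7% to 58.1% of the members. The medians of the 31 genes stayed between 0.02 and 0.07 in them, against -0.02 to 0.00 over all probes.

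In hht2-R53A limma called 0 of the 31 genes, where 0.579% of all probes were called higher and 0.0939% lower, and 2 genes had an unadjusted p below 0.05 (MET14 at 0.26 and MET16 at 0.15). With only the 4 arrays of that comparison 4 were called, 2 higher and 2 lower. In hht2-L109A it called 0 (0% higher and 0.0626% lower over all probes) and 0 had an unadjusted p below 0.05. Between the controls hht2-wt and hhf2-wt 0 were called, as were 0% of all probes, and 0 had an unadjusted p below 0.05. The sample titles carry a number whose meaning is not given: it is 1 for hht2-R53A, hht2-L109A, hhf2-Y98A and both controls, and 2 for the 6 other mutants. Among the H3 mutants this number and the presence of calls went together and cannot be told apart, while hhf2-Y98A, which carries 1 like its control, had 12 called genes.

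**Figure D1:**
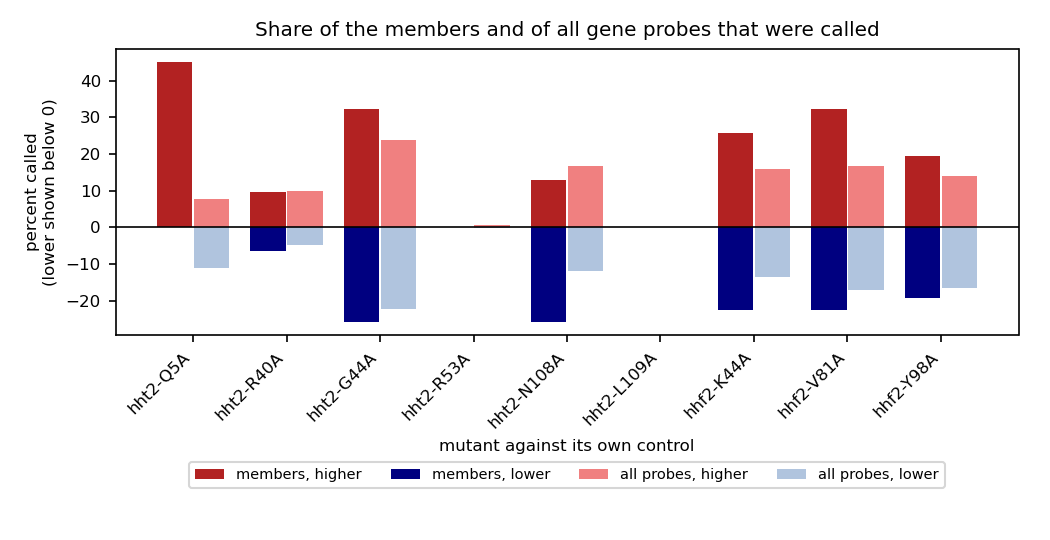
Percent of the 31 genes (dark bars) and of all 6388 probes (light bars) called in each mutant against its own control, with higher above 0 and lower below 0. In hht2-Q5A the 14 called genes all lie above 0, and hht2-R53A and hht2-L109A show no dark bar.

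In all, 93 of the 279 combinations of gene and mutant were called, 55 higher and 38 lower. Of all probes, the share called in a single mutant ran from 0.0626% (hht2-L109A) to 46.3% (hht2-G44A) in either direction. Of the members it ran from 0% to 58.1%. A log2 fold change of at least 0.5 in size was reached by 21 of the 93. Shares of all probes were not computed for that size, nor for the lists of 1 direction below. Of the 31 genes, 28 were called in at least 1 mutant (90.32%, against 78.73% of all probes), and 9 were called in both directions (29.03%, against 22.54% of all probes). There were 12 genes called higher and never lower: SUL1, SUL2, MET16, MET1, MET2, STR2, STR3, MMP1, MUP3, MET4, MET28 and MET32. There were 7 called lower and never higher: MET8, MET7, CYS4, SAM1, SAM2, CBF1 and MET31. CYS3, MUP1 and MET30 were called in 0 mutants. Of the 93 calls, 43 were lost when at least 1 of the 4 arrays of the comparison was left out.

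**Figure D2:**
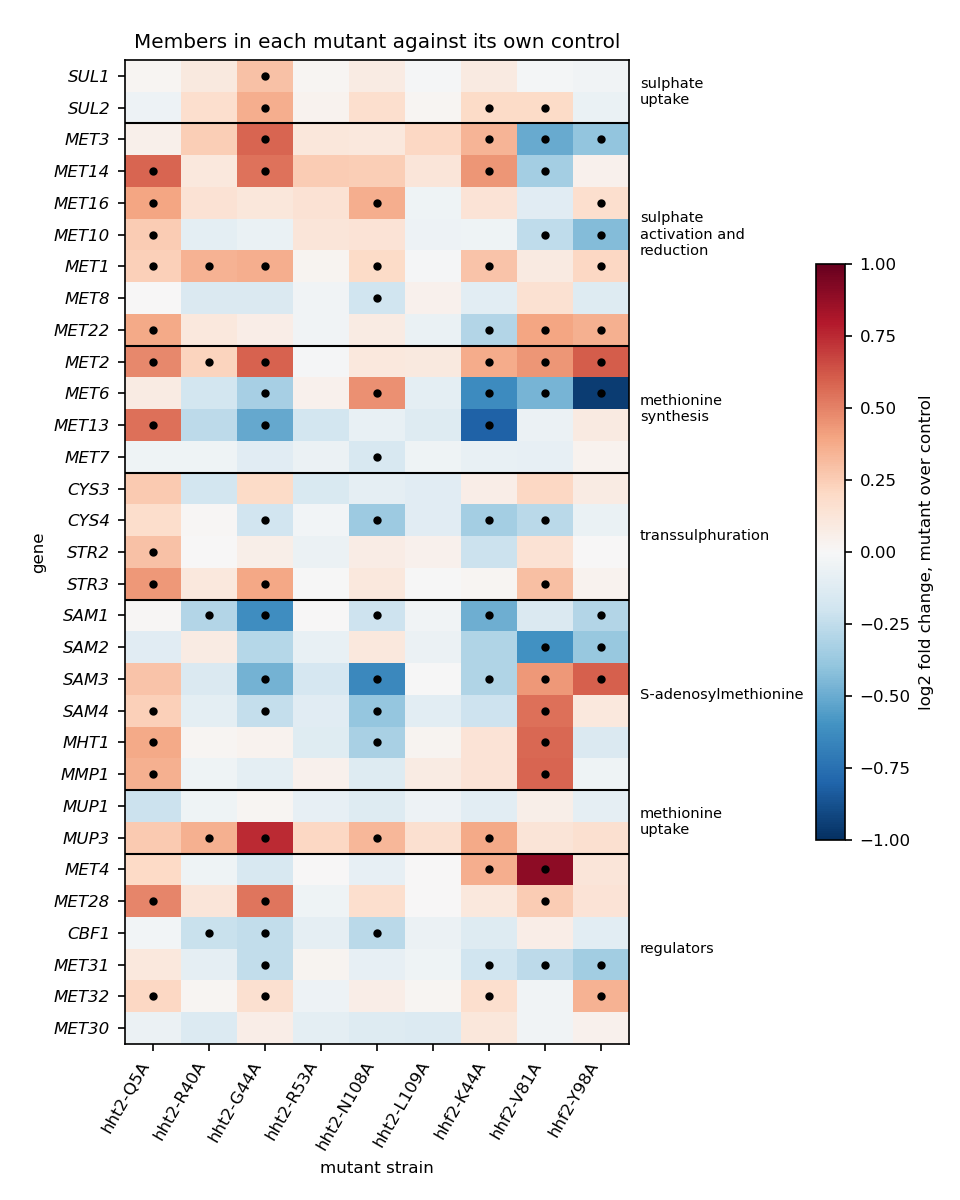
Log2 fold change of each of the 31 genes (rows, grouped by role) in each of the 9 mutants against its own control (columns); red is higher and blue lower in the mutant, the colour scale runs from -1 to 1, and a black dot marks a call. Dots lie in 28 of the 31 rows and in 7 of the 9 columns, and the SUL1 colours rest on signals mostly not above background.

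Sulphate uptake came first in the pathway. SUL1 and SUL2, the high-affinity sulphate permeases, were both called higher in hht2-G44A. The SUL1 probe was dim: it was above background in the strain channel on 6 of 22 arrays, among them both hht2-G44A arrays and 0 of the hht2-wt arrays, and in the reference channel on 0 of 22. Its rise in hht2-G44A is therefore given as a bound of at least 1.13-fold. The bound comes from a mean log2 signal of 6.10 in hht2-G44A and a floor of 5.93 in hht2-wt, where the measured mean was 5.81. It was not itself tested. The limma call (adjusted p = 0.000111) is for the ratio to the dim reference, a log2 change of 0.29. SUL2 stood at 0.38 and 0.29 in hht2-G44A, against -0.04 and -0.01 in hht2-wt, a rise of 0.36 ± 0.06 (adjusted p = 0.000384) with no overlap between the strains. It was also called in hhf2-K44A (0.19 ± 0.06, adjusted p = 0.0334) and in hhf2-V81A (0.19 ± 0.06, adjusted p = 0.034). Both of these smaller calls were lost whichever of their 4 arrays was left out (adjusted p 0.0696 to 0.17).

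The first enzymes of sulphate activation moved furthest in the group of 7 genes that reduce sulphate. MET3 encodes ATP sulphurylase and MET14 the kinase that acts on its product. MET3 read 0.99 and 1.13 in hht2-G44A, against 0.60 and 0.36 in hht2-wt, and rose by 0.58 ± 0.10 (adjusted p = 0.000257). In the H4 mutants it went both ways. It read 0.76 and 0.93 in hhf2-K44A, 0.07 and -0.08 in hhf2-V81A and 0.00 and 0.22 in hhf2-Y98A, against 0.41 and 0.59 in hhf2-wt. The change was 0.34 ± 0.10 in hhf2-K44A (adjusted p = 0.0154), -0.51 ± 0.10 in hhf2-V81A (0.000822) and -0.39 ± 0.10 in hhf2-Y98A (0.00678). In each of these mutants both arrays lay on 1 side of both control arrays. The call in hhf2-K44A was lost without hhf2-K44A b (adjusted p = 0.146) or hhf2-wt a (0.137), and the call in hhf2-Y98A without hhf2-Y98A a (0.0816) or hhf2-wt b (0.0687).

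MET14 had the largest rise of the 31 genes in hht2-Q5A. It read 0.84 and 0.97 in hht2-Q5A and 0.95 and 0.78 in hht2-G44A, against 0.42 and 0.22 in hht2-wt. Both mutants lay wholly above the control, by 0.58 ± 0.10 in hht2-Q5A (adjusted p = 0.00124) and 0.54 ± 0.10 in hht2-G44A (adjusted p = 0.000685). In the H4 strains it read 0.71 and 0.66 in hhf2-K44A and -0.09 and -0.09 in hhf2-V81A, against 0.19 and 0.30 in hhf2-wt. It thus lay above the control in hhf2-K44A (0.44 ± 0.10, adjusted p = 0.00512) and below it in hhf2-V81A (-0.34 ± 0.10, adjusted p = 0.0196). The first of these was lost without hhf2-wt a (adjusted p = 0.0536). The second was lost without hhf2-V81A a (0.0922), hhf2-V81A b (0.0789) or hhf2-wt b (0.128).

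MET16, which encodes the reductase that makes sulphite, rose in hht2-N108A and hht2-Q5A. It read 0.65 and 0.73 in hht2-Q5A and 0.70 and 0.61 in hht2-N108A, against 0.29 and 0.29 in hht2-wt, with changes of 0.40 ± 0.05 (adjusted p = 0.000195) and 0.36 ± 0.05 (adjusted p = 0.000274). Neither mutant overlapped the control. MET16 was also called higher in hhf2-Y98A, by 0.17. The log2 fold change was 0.19 without hhf2-Y98A a, 0.15 without hhf2-Y98A b and 0.125 without hhf2-wt a. The call was lost each time. It was also lost with no background subtraction, with no dye term and with only the 4 arrays of the comparison. MET10, a subunit of sulphite reductase, was lowest in hhf2-Y98A, where it read -0.13 and 0.04, against 0.43 and 0.34 in hhf2-wt (-0.43 ± 0.08, adjusted p = 0.000746). The hhf2-Y98A arrays lay below both controls. It was called lower in hhf2-V81A as well (-0.25 ± 0.08, adjusted p = 0.0223) and higher in hht2-Q5A (0.26 ± 0.08, adjusted p = 0.0333), and these calls were lost whichever of their 4 arrays was left out (adjusted p 0.0671 to 0.103 for hhf2-V81A and 0.0625 to 0.222 for hht2-Q5A).

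MET1, which makes the sirohaem cofactor of sulphite reductase, was one of the 2 genes called in the most mutants, 6, always higher. Of all probes, 2.5% were called in 6 mutants in either direction, 0.798% in 7 and 0.0939% in 8. In the H3 strains it read 0.26 and 0.22 in hht2-Q5A, 0.29 and 0.40 in hht2-R40A, 0.37 and 0.36 in hht2-G44A and 0.20 and 0.18 in hht2-N108A, against 0.04 and -0.04 in hht2-wt. Its changes there were 0.24, 0.35, 0.36 and 0.19, each ± 0.05 (adjusted p 0.00812, 0.000665, 0.000111 and 0.0183). In the H4 strains it read 0.16 and 0.28 in hhf2-K44A and 0.10 and 0.17 in hhf2-Y98A, against -0.10 and -0.04 in hhf2-wt. Those rises were 0.29 ± 0.05 (adjusted p = 0.00126) and 0.20 ± 0.05 (adjusted p = 0.0113). All 12 mutant arrays lay above both arrays of their control, yet no change reached 0.5. The call in hht2-Q5A was lost without hht2-Q5A a (adjusted p = 0.0908) or hht2-wt b (0.0869), that in hht2-N108A without hht2-N108A a (0.11) or hht2-wt b (0.153), and that in hhf2-Y98A without hhf2-Y98A b (0.0937) or hhf2-wt a (0.0862).

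MET8, which acts in the same cofactor branch as MET1, was called once, lower in hht2-N108A (-0.20 ± 0.07, adjusted p = 0.041), and without hht2-N108A b (adjusted p = 0.273) or hht2-wt a (0.32) it was not. MET22 encodes the phosphatase that clears the nucleotide left over from sulphate reduction. It read 0.43 and 0.39 in hhf2-Y98A, 0.51 and 0.38 in hhf2-V81A and -0.24 and -0.25 in hhf2-K44A, against 0.04 and 0.07 in hhf2-wt. The first 2 mutants lay above the control, by 0.36 ± 0.06 (adjusted p = 0.000594) and 0.39 ± 0.06 (adjusted p = 0.000172), and hhf2-K44A lay below it, by -0.30 ± 0.06 (adjusted p = 0.00254). It also rose in hht2-Q5A (0.38 ± 0.06, adjusted p = 0.000758). Over the 7 genes of this group, hht2-Q5A had 5 called higher and 0 lower (71.4%, against 18.9% of all probes in either direction). Among the H4 mutants, hhf2-K44A had 3 and 1 (57.1%, against 29.5%). In hhf2-V81A there were 1 and 3 (57.1%, against 33.9%), and in hhf2-Y98A 3 and 2 (71.4%, against 30.6%). The counts were 3 and 0 in hht2-G44A (42.9%, against 46.3%), 2 and 1 in hht2-N108A (42.9%, against 28.6%) and 1 and 0 in hht2-R40A (14.3%, against 14.7%). In hht2-R53A and hht2-L109A 0 were called (0.673% and 0.0626% of all probes).

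Methionine synthesis from homoserine is represented by 4 genes. MET6, the methionine synthase, had the largest fall of all 31 genes. It read -1.16 and -1.21 in hhf2-Y98A, -0.75 and -0.99 in hhf2-K44A and -0.69 and -0.70 in hhf2-V81A, against -0.26 and -0.22 in hhf2-wt. All 6 mutant arrays lay below both controls. The changes were -0.95 ± 0.10 (adjusted p = 5.53e-06), -0.63 ± 0.10 (adjusted p = 0.000224) and -0.46 ± 0.10 (adjusted p = 0.00181). In the H3 strains it read -0.42 and -0.81 in hht2-G44A and 0.11 and 0.23 in hht2-N108A, against -0.25 and -0.32 in hht2-wt. It was thus lower in hht2-G44A (-0.33 ± 0.10, adjusted p = 0.0125) and higher in hht2-N108A (0.46 ± 0.10, adjusted p = 0.00334). The call in hht2-G44A rested on 1 culture: without hht2-G44A b the change was -0.17 (adjusted p = 0.187), and without hht2-wt b the adjusted p was 0.0657.

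MET13 encodes methylenetetrahydrofolate reductase, which makes the methyl group that MET6 uses. It read -0.85 and -1.02 in hhf2-K44A, against 0.01 and -0.27 in hhf2-wt, a fall of -0.80 ± 0.14 (adjusted p = 0.000699) with the strains well apart. In the H3 strains it read 0.49 and 0.39 in hht2-Q5A and -0.78 and -0.46 in hht2-G44A, against -0.35 and 0.14 in hht2-wt. The control arrays differed by about as much as either mutant did from their mean. The changes were 0.55 ± 0.14 in hht2-Q5A (adjusted p = 0.0158) and -0.51 ± 0.14 in hht2-G44A (adjusted p = 0.00906). Without hht2-wt a the change in hht2-Q5A was 0.32 (adjusted p = 0.219), without hht2-Q5A a it was 0.45 (0.144), without hht2-wt b the change in hht2-G44A was -0.28 (0.164), and without hht2-G44A a it was -0.38 (0.101).

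MET2, which acetylates homoserine to make the acceptor of sulphide, was called higher in 6 mutants. In the H3 strains it read 0.34 and 0.22 in hht2-Q5A, -0.05 and 0.08 in hht2-R40A and 0.41 and 0.36 in hht2-G44A, against -0.23 and -0.18 in hht2-wt. In the H4 strains it read 0.24 and 0.12 in hhf2-K44A, 0.27 and 0.24 in hhf2-V81A and 0.45 and 0.38 in hhf2-Y98A, against -0.19 and -0.19 in hhf2-wt. All 12 of these mutant arrays lay above their controls. The rise was 0.60 ± 0.06 in hhf2-Y98A (adjusted p = 4.57e-06), 0.59 ± 0.06 in hht2-G44A (3.67e-06), 0.48 ± 0.06 in hht2-Q5A (8.91e-05), 0.44 ± 0.06 in hhf2-V81A (4.15e-05), 0.37 ± 0.06 in hhf2-K44A (0.000345) and 0.22 ± 0.06 in hht2-R40A (0.0234). The smallest was lost without hht2-R40A b (0.14, adjusted p = 0.229) or hht2-wt a (0.18, adjusted p = 0.15), and with print-tip loess (0.14, adjusted p = 0.0862). MET7, which lengthens the glutamate tail of folates, was called once, lower in hht2-N108A (-0.16 ± 0.06, adjusted p = 0.0408), and that call was lost without hht2-N108A a (-0.11, adjusted p = 0.29), hht2-wt a (0.191) or hht2-wt b (0.088).

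The rises of MET2 in 2 of the H4 mutants stood on a chromosome that was high as a whole. MET2 and MET4 lie on chromosome XIV per the R64 gene table, and the median change over the 358 probes placed there was 0.72 in hhf2-V81A (0.72 in culture a and 0.71 in culture b) and 0.39 in hhf2-K44A (0.41 and 0.37). After each chromosome was centred on its own median, MET2 was -0.28 in hhf2-V81A (adjusted p = 0.00157), that is lower than its chromosome, and -0.035 in hhf2-K44A (adjusted p = 0.701). In the other strains the chromosome's median lay within 0.06 of 0, and the rise of MET2 kept its call, at 0.58 in hhf2-Y98A and 0.63 in hht2-G44A. MET4, the activator of the pathway, was called in the same 2 H4 mutants and no other. It read 0.77 and 0.75 in hhf2-V81A and 0.14 and 0.31 in hhf2-K44A, against -0.16 and -0.11 in hhf2-wt, which gave 0.89 ± 0.07 in hhf2-V81A (adjusted p = 1.23e-07), the largest rise of the 31 genes, and 0.36 ± 0.07 in hhf2-K44A (adjusted p = 0.00116). With chromosomes centred its change was 0.17 in hhf2-V81A (adjusted p = 0.0965) and -0.047 in hhf2-K44A (adjusted p = 0.681), and neither was called.

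**Figure D3:**
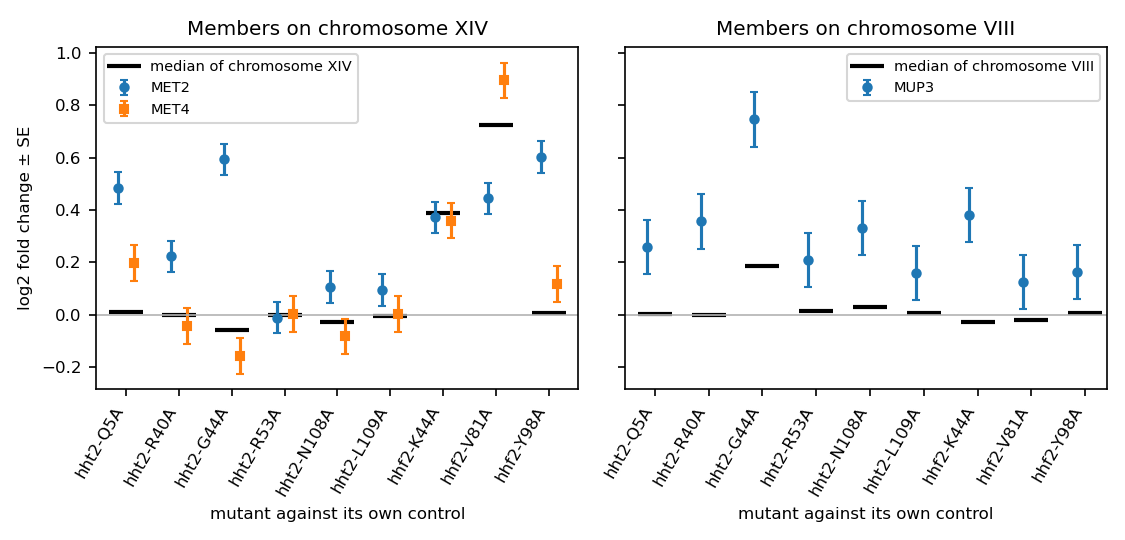
Log2 fold change ± SE of MET2 and MET4 with the median of all probes on chromosome XIV (left), and of MUP3 with the median of chromosome VIII (right), in each mutant against its own control. In hhf2-K44A both genes lie at the chromosome XIV median, in hhf2-V81A MET2 lies below it and MET4 above it, and MUP3 lies above the chromosome VIII median in all 9 mutants.

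The 4 transsulphuration genes link cysteine and homocysteine in both directions. CYS4 takes the first step from homocysteine to cysteine and had the highest median strain signal of the 31 probes (7843). It read -0.28 and -0.18 in hht2-N108A, against 0.18 and 0.09 in hht2-wt, and fell by 0.36 ± 0.06 (adjusted p = 0.000535), with no overlap. It also fell in hhf2-K44A (-0.34 ± 0.06, adjusted p = 0.00057), hhf2-V81A (-0.27 ± 0.06, adjusted p = 0.00241) and hht2-G44A (-0.19 ± 0.06, adjusted p = 0.0166). The last was lost without hht2-G44A b (adjusted p = 0.136) or hht2-wt a (0.149), and with print-tip loess it was -0.12 (0.067). CYS4 was called higher in 0 mutants, and its change in hht2-Q5A was 0.17.

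STR3 and STR2 run the opposite way, from cysteine back to homocysteine. STR3 rose in hht2-Q5A (0.43 ± 0.10, adjusted p = 0.00615), hht2-G44A (0.39 ± 0.10, adjusted p = 0.0044) and hhf2-V81A (0.30 ± 0.10, adjusted p = 0.0253). Each of these calls was lost without 1 or more arrays: hht2-Q5A a (adjusted p = 0.0709) or hht2-wt b (0.0683), hht2-G44A b (0.23, adjusted p = 0.0753) or hht2-wt b (0.0586), and hhf2-V81A a (0.196), hhf2-wt a (0.104) or hhf2-wt b (0.076). STR2 was called only in hht2-Q5A among the 9 mutants (0.29 ± 0.09, adjusted p = 0.0379), and was not called without hht2-Q5A a (0.0654), hht2-Q5A b (0.242) or hht2-wt b (0.16, adjusted p = 0.337). CYS3, which completes the step to cysteine, was called in none. Its largest change was 0.26 in hht2-Q5A, and its hht2-G44A arrays read 0.51 and -0.14, against -0.09 and 0.08 in hht2-wt. Chromosome I, on which it lies, had a median change of 0.42 in culture a and -0.01 in culture b of hht2-G44A.

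The group around S-adenosylmethionine split by gene. SAM1 and SAM2 encode the 2 S-adenosylmethionine synthetases, and both were called lower and never higher. SAM1 read -0.28 and -0.30 in hht2-R40A, -0.62 and -0.62 in hht2-G44A and -0.19 and -0.23 in hht2-N108A, against -0.03 and 0.03 in hht2-wt. In the H4 strains it read -0.43 and -0.61 in hhf2-K44A and -0.22 and -0.45 in hhf2-Y98A, against 0.07 and -0.14 in hhf2-wt. All 10 arrays lay below both arrays of their control. SAM1 fell by 0.62 ± 0.07 in hht2-G44A (adjusted p = 4.85e-06) and by 0.49 ± 0.07 in hhf2-K44A (adjusted p = 7.1e-05). It changed less, by -0.29 ± 0.07, in hht2-R40A (adjusted p = 0.00764) and in hhf2-Y98A (0.00342), and by -0.21 ± 0.07 in hht2-N108A (0.0266).

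These 3 smaller SAM1 calls each depended on single arrays. In hht2-R40A the adjusted p was 0.0911 without hht2-R40A a and 0.12 without hht2-wt b. In hht2-N108A it was 0.146 without hht2-N108A a, 0.0561 without hht2-N108A b and 0.244 without hht2-wt b, where the change was -0.13. In hhf2-Y98A it was 0.0542 without hhf2-Y98A b and 0.0569 without hhf2-wt a, and print-tip loess gave -0.18 (0.0445). SAM2 was called in hhf2-V81A and hhf2-Y98A, the second shared with SAM1. Without a call, SAM2 also lay below both controls in hht2-G44A (-0.40 and -0.39, against -0.13 and -0.08). The same held in hhf2-K44A (-0.49 and -0.30, against 0.03 and -0.22). In hht2-R40A (0.01 and -0.06) and hht2-N108A (0.01 and -0.02) it lay above both controls. The changes of SAM1 and SAM2 were not tested against each other. It read -0.66 and -0.75 in hhf2-V81A, against 0.03 and -0.22 in hhf2-wt (-0.61 ± 0.12, adjusted p = 0.00145), where SAM1 changed by -0.14 and was not called. In hhf2-Y98A SAM2 read -0.18 and -0.78, which overlapped the control; its call there (-0.38 ± 0.12, adjusted p = 0.0308) was lost without hhf2-Y98A b (-0.11, adjusted p = 0.478) or hhf2-wt a (-0.30, adjusted p = 0.205), and without hhf2-Y98A a the change was -0.66. The 2 genes are close relatives, and cross-hybridisation between their probes was not tested.

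SAM3 encodes the permease for S-adenosylmethionine and went both ways. It read -0.91 and -0.86 in hht2-N108A and -0.76 and -0.66 in hht2-G44A, against -0.18 and -0.29 in hht2-wt. It was lower in both, by -0.65 ± 0.11 (adjusted p = 0.000521) and -0.47 ± 0.11 (adjusted p = 0.00229), with no overlap. In the H4 strains it read 0.60 and 0.12 in hhf2-Y98A, 0.15 and 0.24 in hhf2-V81A and -0.50 and -0.58 in hhf2-K44A, against -0.30 and -0.18 in hhf2-wt. It was higher in hhf2-Y98A (0.60 ± 0.11, adjusted p = 0.000619) and hhf2-V81A (0.43 ± 0.11, adjusted p = 0.00505) and lower in hhf2-K44A (-0.30 ± 0.11, adjusted p = 0.0443). Without hhf2-Y98A a the first was 0.37 (adjusted p = 0.0058). The second was lost without hhf2-V81A b (adjusted p = 0.0631) or hhf2-wt a (0.0697), and the third without hhf2-K44A a (0.114), hhf2-K44A b (0.181) or hhf2-wt b (0.276).

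Methyl transfer back to homocysteine is carried out by SAM4, which uses S-adenosylmethionine, and MHT1, which uses S-methylmethionine; MMP1 is the permease for S-methylmethionine. In hhf2-V81A MMP1 read 0.14 and 0.32, against -0.46 and -0.25 in hhf2-wt, and rose by 0.58 ± 0.09 (adjusted p = 0.000104). MHT1 read 0.21 and 0.38 in hhf2-V81A, against -0.38 and -0.18 in hhf2-wt, and rose by 0.57 ± 0.10 (adjusted p = 0.000465). SAM4 rose by 0.55 ± 0.08 there (adjusted p = 5.02e-05). SAM3 and SAM4 are neighbours on chromosome XVI, as are MHT1 and MMP1 on chromosome XII. These 4 genes were the ones of the 6 in this group called higher in hhf2-V81A, where 16.8% of all probes were called higher. The SAM3 call among them depended on single arrays, as given above.

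In hht2-N108A the direction was the opposite for SAM4. It read -0.22 and -0.36 in hht2-N108A, against 0.20 and -0.00 in hht2-wt, and fell by 0.39 ± 0.08 (adjusted p = 0.00215), with both mutant arrays below both controls. MHT1 was also called lower in hht2-N108A (-0.32 ± 0.10, adjusted p = 0.0282), and that call was lost without hht2-N108A b (-0.21, adjusted p = 0.233) or hht2-wt a (0.247). In hht2-Q5A MHT1 (0.38 ± 0.10, adjusted p = 0.0179), MMP1 (0.35 ± 0.09, adjusted p = 0.0117) and SAM4 (0.24 ± 0.08, adjusted p = 0.0445) were called higher. All 3 lost the call without hht2-Q5A a (adjusted p = 0.144, 0.133 and 0.109) and without hht2-wt b (0.158, 0.0663 and 0.249), and MMP1 and SAM4 also without hht2-wt a (0.0538 and 0.0705) and SAM4 without hht2-Q5A b (0.214). SAM4 in hht2-G44A (-0.24 ± 0.08, adjusted p = 0.0209) was lost without hht2-G44A a (0.174) or hht2-wt a (0.159).

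**Figure D4:**
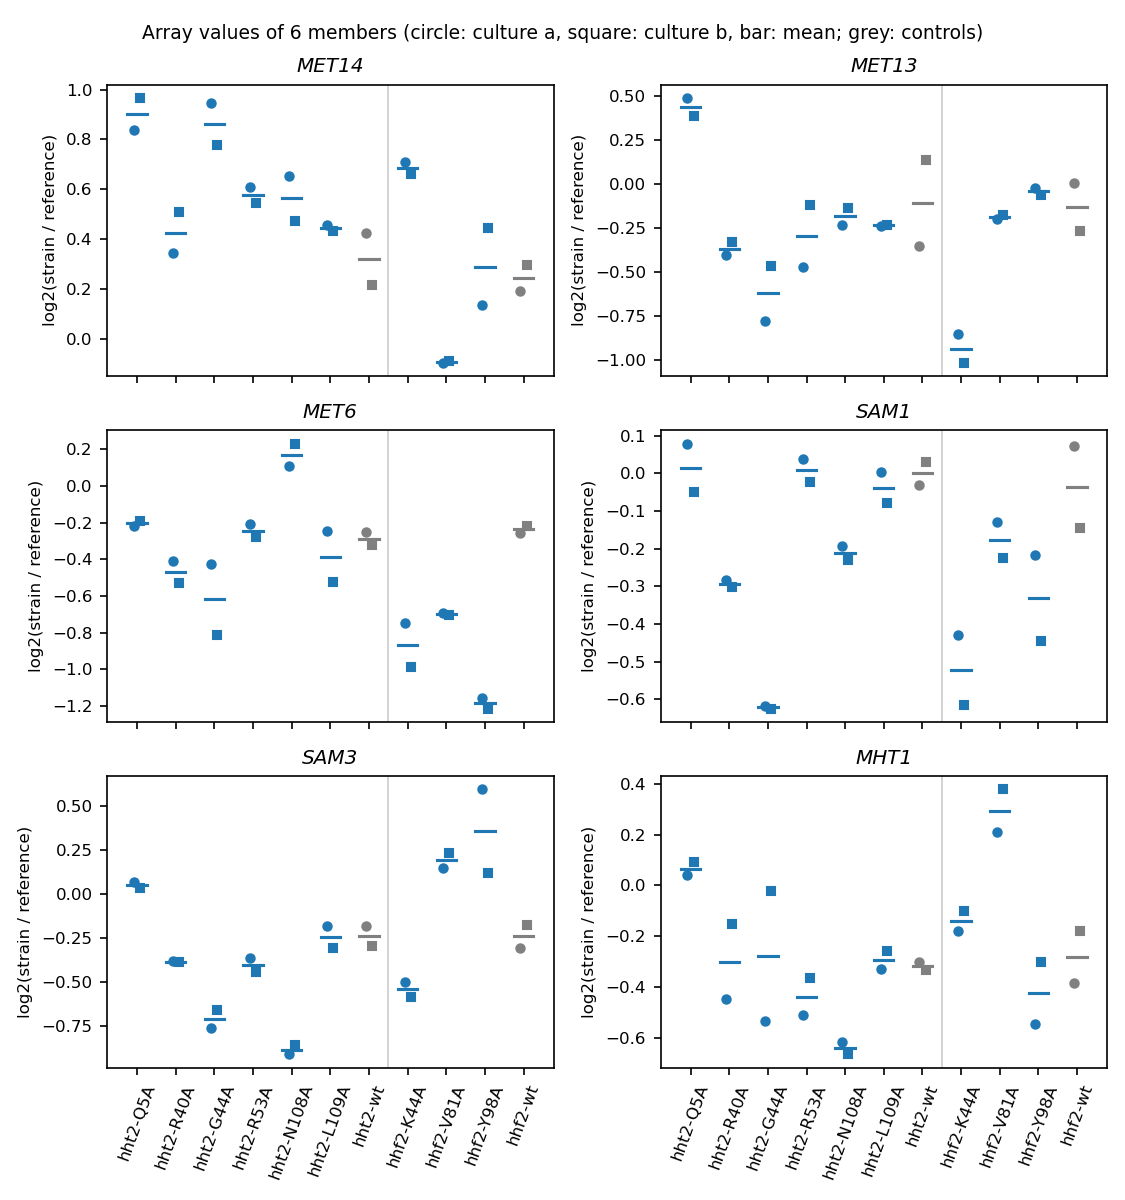
Log2 ratio of strain over reference on every array for 6 of the genes, with mutants in blue left of their control in grey, H3 strains left and H4 strains right of the vertical line; circles are culture a, squares culture b and bars the mean, and each panel has its own scale. MET6 lies below the control on all 6 arrays of H4 mutants, and SAM3 and MET14 lie above the control in some mutants and below it in others.

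Methionine is taken up by MUP1, the high-affinity permease, and by MUP3, a low-affinity one. MUP3 had the largest rise of the 31 genes in hht2-G44A, where it read 0.21 and 0.73, against -0.30 and -0.25 in hht2-wt (0.75 ± 0.10, adjusted p = 5.5e-05). Both arrays lay above both controls, but culture b was the higher. Chromosome VIII, which carries MUP3, had a median change of 0.06 in culture a and 0.35 in culture b of that strain, and with chromosomes centred MUP3 was at 0.55 (adjusted p = 7.74e-05). It also read -0.04 and 0.20 in hht2-R40A and 0.05 and 0.06 in hht2-N108A, against the same control, and 0.03 and 0.23 in hhf2-K44A, against -0.43 and -0.06 in hhf2-wt. Each of these lay above its control, by 0.36 ± 0.10 (adjusted p = 0.0323), 0.33 ± 0.10 (0.028) and 0.38 ± 0.10 (0.013).

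The 3 smaller MUP3 calls were not held without the dye term (adjusted p = 0.196 in hht2-R40A, 0.159 in hht2-N108A and 0.102 in hhf2-K44A). They were lost without hht2-R40A a (0.116), hht2-R40A b (0.141) or hht2-wt b (0.247), without hht2-N108A a (0.225) or hht2-wt b (0.183), and without hhf2-K44A a (0.0591), hhf2-K44A b (0.0713) or hhf2-wt a (0.138). MUP1 was called in 0 mutants and ranged from -0.22 in hht2-Q5A to 0.06 in hhf2-V81A. Its cultures a and b differed by a median of 0.28 over the 11 strains, the widest gap of the 31 probes.

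The 6 regulators did not move together. MET28, a partner of Met4 on DNA, read 0.47 and 0.36 in hht2-Q5A, against -0.01 and -0.16 in hht2-wt, and rose by 0.49 ± 0.08 (adjusted p = 0.000878). It rose by a like amount in hht2-G44A (0.53 ± 0.08, adjusted p = 0.00014). Both mutants lay above the control on both arrays. It was also called in hhf2-V81A (0.25 ± 0.08, adjusted p = 0.0287), but not without hhf2-V81A a (0.17), hhf2-V81A b (0.064) or hhf2-wt a (0.16 with an adjusted p of 0.263). CBF1, which binds DNA for Met4 and also at centromeres, read -0.18 and -0.44 in hht2-R40A, against -0.06 and -0.11 in hht2-wt, a fall of 0.22 ± 0.05 (adjusted p = 0.0125). The arrays did not overlap, though culture a lay close to the control. CBF1 also fell in hht2-G44A (-0.25 ± 0.05, adjusted p = 0.00208) and hht2-N108A (-0.27 ± 0.05, adjusted p = 0.00252). Without the dye term none of the 3 was called (adjusted p = 0.237, 0.0781 and 0.0889), and the call in hht2-R40A was lost without hht2-R40A b (0.133) or hht2-wt b (0.151).

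MET31 and MET32 encode related zinc-finger proteins that bring Met4 to DNA, and their calls had opposite signs. MET31 fell in hhf2-Y98A (-0.35 ± 0.06, adjusted p = 0.000302), hhf2-V81A (-0.26 ± 0.06, adjusted p = 0.00192), hht2-G44A (-0.25 ± 0.06, adjusted p = 0.0024) and hhf2-K44A (-0.20 ± 0.06, adjusted p = 0.0165). MET32 rose in hhf2-Y98A (0.35 ± 0.05, adjusted p = 0.000134), hht2-Q5A (0.21 ± 0.05, adjusted p = 0.0101), hhf2-K44A (0.16 ± 0.05, adjusted p = 0.0245) and hht2-G44A (0.16 ± 0.05, adjusted p = 0.0197). In hhf2-Y98A MET31 read -0.28 and -0.08, against 0.11 and 0.21 in hhf2-wt, and MET32 read 0.38 and 0.40, against 0.07 and 0.01. For both genes the mutant and control arrays were separate there. The calls of MET32 outside hhf2-Y98A were lost without single arrays: hht2-Q5A a (0.12) or hht2-wt a (0.0717), hht2-G44A a (0.10 with an adjusted p of 0.181), hht2-wt a (0.0902) or hht2-wt b (0.0616), and any of the 4 arrays in hhf2-K44A (0.0617 to 0.135). So was that of MET31 in hhf2-K44A, without hhf2-K44A b (0.13), hhf2-wt a (0.0567) or hhf2-wt b (0.0829). MET30, the ubiquitin ligase subunit, was called in 0 mutants and ranged from -0.13 to 0.12.

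Mutants were also compared directly, which leaves the shared controls out. In hht2-Q5A against hht2-R40A 21 of the 31 genes were higher and 1 lower (16.1% of all probes higher, 21.6% lower), with 20 and 4 on the value table. The total of 22 was 11 without hht2-Q5A a and 11 without hht2-R40A a. The median difference of the 31 genes was 0.25, against 0.00 over all probes. MET13 differed most: it read 0.49 and 0.39 in hht2-Q5A, against -0.40 and -0.33 in hht2-R40A (0.81 ± 0.14, adjusted p = 0.000533). All 4 transsulphuration genes were called higher in hht2-Q5A, CYS3 among them (0.44 ± 0.14, adjusted p = 0.025), although CYS3 passed in no comparison with a control. Each of the 4 calls was lost without single arrays. The CYS3 and CYS4 (0.16) calls were lost whichever of the 4 arrays was left out, with an adjusted p of 0.12 to 0.163 for CYS4, and that of CYS3 also on the value table. The STR3 call was lost without hht2-Q5A a, hht2-R40A a or hht2-R40A b, and the STR2 call without hht2-Q5A b or hht2-R40A a.

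In hht2-Q5A against hht2-N108A 17 genes were higher and 2 lower (19.4% of all probes higher, 24.4% lower), a total of 19 that was 11 without hht2-N108A b. SAM3 differed by 0.94 ± 0.11 (adjusted p = 8.54e-06), with 0.07 and 0.03 in hht2-Q5A, against -0.91 and -0.86 in hht2-N108A. CYS4 differed by 0.54 ± 0.06 (adjusted p = 7.35e-06), with 0.29 and 0.32 in hht2-Q5A, against -0.28 and -0.18 in hht2-N108A. The 2 genes lower in hht2-Q5A were MET6 (-0.37 ± 0.10, adjusted p = 0.00635) and SUL2 (-0.22 ± 0.06, adjusted p = 0.0129), and both calls were lost without hht2-N108A b, among others. MET6 is also the gene that rose most in hht2-N108A.

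Residues R40 and G44 lie close together in the H3 sequence. In hht2-R40A against hht2-G44A 4 genes were higher and 8 lower (9.31% of all probes higher, 11.6% lower), and with chromosomes centred 1 was higher and 8 lower. SAM1 read -0.28 and -0.30 in hht2-R40A, against -0.62 and -0.62 in hht2-G44A (0.33 ± 0.07, adjusted p = 0.00379). MET14 read 0.34 and 0.51 in hht2-R40A, against 0.95 and 0.78 in hht2-G44A (-0.44 ± 0.10, adjusted p = 0.00947), and MET2 was lower by 0.37 ± 0.06 (adjusted p = 0.00117). For each of these genes the smaller departure from the control was in hht2-R40A. The SAM1 call was lost without hht2-R40A b, the MET14 call without hht2-R40A a or hht2-G44A a, and the MET14 and MET2 calls when only the 4 arrays were fitted. The count of 12 rested heavily on single arrays and was 2 without hht2-R40A b, 4 without hht2-R40A a and 7 without hht2-G44A a.

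Among the H4 mutants, hhf2-V81A differed from hhf2-Y98A with 9 genes higher and 5 lower (21.6% of all probes higher, 18.4% lower). With chromosomes centred 8 were higher and 5 lower. MHT1 read 0.21 and 0.38 in hhf2-V81A, against -0.55 and -0.30 in hhf2-Y98A (0.72 ± 0.10, adjusted p = 5.16e-05), and MMP1 differed by 0.63 ± 0.09 (adjusted p = 4.25e-05). MET32 read -0.01 and 0.02 in hhf2-V81A, against 0.38 and 0.40 in hhf2-Y98A (-0.39 ± 0.05, adjusted p = 2.42e-05). The fall of MET6 was the smaller in hhf2-V81A, by 0.49 ± 0.10 (adjusted p = 0.000974).

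Against hhf2-K44A, hhf2-V81A had 12 genes higher and 7 lower (22.9% of all probes higher, 21.1% lower), a total of 19 that was 12 without hhf2-V81A a. With chromosomes centred 12 were again higher and 7 lower, and 17 of the 19 calls were kept. MET3 was lower in hhf2-V81A by 0.85 on the log2 scale, that is -0.85 ± 0.10 (adjusted p = 8.71e-06), and MET14 by -0.78 ± 0.10 (adjusted p = 3.39e-05). MET22 was higher by 0.69 ± 0.06 (adjusted p = 1.4e-06), SAM4 by 0.76 ± 0.08 (adjusted p = 3.25e-06), MET13 by 0.75 ± 0.14 (adjusted p = 0.000739) and SAM3 by 0.74 ± 0.11 (adjusted p = 7.26e-05). In all 6 genes the 2 mutants did not overlap, but the genes are shown for their large differences, so this adds no support.

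Other genes of sulphur and methionine metabolism, 33 that are not among the 31, were called as follows (higher, then lower). There were 6 and 7 in hht2-Q5A, 4 and 3 in hht2-R40A, 11 and 8 in hht2-G44A, 4 and 6 in hht2-N108A, 8 and 1 in hhf2-K44A, 9 and 3 in hhf2-V81A and 4 and 8 in hhf2-Y98A. In hht2-R53A limma called 0 (6 at an unadjusted p below 0.05) and in hht2-L109A 0 (1 unadjusted). Taken in either direction, 39.4% of the 33 were called in hht2-Q5A, against 18.9% of all probes, and 21.2% in hht2-R40A (14.7%), 57.6% in hht2-G44A (46.3%) and 36.4% in hhf2-Y98A (30.6%). The share was near that of all probes in hht2-N108A (30.3%, against 28.6%), hhf2-K44A (27.3%, against 29.5%) and hhf2-V81A (36.4%, against 33.9%).

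Those called with a change of at least 0.5 in size were few. HOM3 and HOM2, which make the homoserine precursor from aspartate, rose in hhf2-V81A by 1.06 ± 0.07 (adjusted p = 3.04e-08) and 0.85 ± 0.08 (adjusted p = 6.04e-07), and HOM3 rose in hht2-Q5A by 0.65 ± 0.07 (adjusted p = 2.6e-05). Also in hht2-Q5A, MXR1, a methionine sulphoxide reductase, rose by 0.59 ± 0.06 (adjusted p = 2.6e-05) and OPT1, a peptide and glutathione transporter, by 0.53 ± 0.10 (adjusted p = 0.00179). UTR4 of methionine salvage fell there by 0.57 ± 0.12 (adjusted p = 0.00566), a call that was lost without hht2-Q5A a (adjusted p = 0.0515). YCT1, a cysteine transporter, rose in hht2-G44A by 0.85 ± 0.17 (adjusted p = 0.00108), and TRX2, a thioredoxin, in hht2-N108A by 0.64 ± 0.07 (adjusted p = 1.89e-05). IRC7 rose in hhf2-K44A by 0.67 ± 0.11 (adjusted p = 0.000502), and SPE3, a spermidine synthase, fell in hhf2-Y98A by 0.54 ± 0.06 (adjusted p = 2.12e-05). DUG3, of glutathione breakdown, rose in hhf2-V81A by 0.70 ± 0.08 (adjusted p = 4.77e-06), but it lies on chromosome XIV and stood at -0.0255 (adjusted p = 0.821) once chromosomes were centred.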

How the data were processed

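Expression was measured on 22 two-colour arrays, 1 per culture, and all results start from the scanner files. Per the file headers, the deposited scanner output gives, for each channel, the mean intensity of a spot and the median intensity of the background around it. The deposited value table, used as an alternative, holds log2 ratios that the authors made with print-tip loess (span 0.4) without background subtraction and a gene-specific dye correction, per the deposited protocol text. Across genes it correlated with the scanner ratios at -0.985 to -0.982 on 3 arrays, hht2-Q5A a, hht2-L109A a and hhf2-wt a. The value-table ratios of these 3 arrays were turned in sign. On the 19 others the correlation was 0.935 to 0.991.

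Background was corrected with normexp (offset 50, which understates ratios of dim probes), and each array was normalised by global loess (span 0.3) with control spots at weight 0. By the dye labels, each ratio was set as strain over reference, and the 2 spots of a probe were averaged. With limma 3.58.1 in R 4.3.3, 11 strain means and a dye term were fitted over all 22 arrays (10 residual degrees of freedom, prior 4.162, median SE 0.068), with Benjamini-Hochberg adjustment over 6388 probes in each of 15 comparisons. Dye and culture letter coincide, so the dye term is also the replicate block; the difference between cultures a and b correlated by over 0.1 in 52 of 55 pairs of strains (median r 0.387, lowest -0.125).

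"Above background" means by 2.6 background SDs. Gene names (5326 probes) and chromosomes (5324) are from the R64 gene table. The members and lists, and the direct comparisons, were chosen with earlier results of these data known. Array values are given for the 3 largest called rises and falls per mutant and the genes called in the most mutants. Alternatives were other background and loess settings, the value table, no dye term, only the 4 arrays of a comparison, dim probes left out, chromosomes centred, both controls pooled and each array left out.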

Additional observations from a re-analysis of the deposited data

Results flagged for a closer look

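For 6 pairings of gene and mutants, a gene was called in opposite directions in 2 mutants of 1 histone against their shared control, and the mutants differed in the direct limma test over all 6388 probes. The direct difference is the difference of those 2 contrasts, so genes picked for opposite calls had to differ there, and the direct test adds no further support. SAM4 and MHT1 were higher in hht2-Q5A than in hht2-N108A, by 0.62 (adjusted p = 1.85e-05; 0.24 in hht2-Q5A and -0.39 in hht2-N108A against the control) and by 0.71 (adjusted p = 7.82e-05; 0.38 and -0.32). MET3 was at -0.85 in hhf2-V81A against hhf2-K44A (adjusted p = 8.71e-06), with -0.51 in hhf2-V81A and 0.34 in hhf2-K44A against hhf2-wt. MET14 was at -0.78 (adjusted p = 3.39e-05), with -0.34 in hhf2-V81A and 0.44 in hhf2-K44A. MET22 was higher in hhf2-V81A than in hhf2-K44A by 0.69 (adjusted p = 1.4e-06), with 0.39 and -0.30, and SAM3 by 0.74 (adjusted p = 7.26e-05), with 0.43 and -0.30. The 6 direct differences kept their call when each of the 4 arrays was left out in turn, but several of the calls against the control did not. SAM4 in hht2-Q5A lost its call whichever array was left out. MHT1 in both H3 mutants, MET14 and SAM3 in both H4 mutants and MET3 in hhf2-K44A lost it without at least 1 single array. With 2 arrays per strain, single arrays could not be tested as outliers.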

How the results depend on the processing

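Counts of called genes moved most with the dye term, which is also the replicate block, and with the number of arrays. With no replicate block they were 8 in hht2-Q5A (14 with it), 2 in hht2-R40A (5), 6 in hht2-N108A (12) and 4 in hht2-R40A against hht2-G44A (12), and the other counts stayed within 1.5 times. With only the 4 arrays of a comparison they were 8 in hht2-Q5A, 3 in hht2-R40A, 4 in hht2-R53A (2 higher and 2 lower, against 0) and 4 in hht2-R40A against hht2-G44A. The value table gave 8 in hht2-R40A. Leaving out 1 array gave 5 to 11 in hht2-Q5A, 2 to 5 in hht2-R40A, 11 to 17 in hht2-Q5A against hht2-R40A (22), 11 to 16 against hht2-N108A (19), 2 to 9 in hht2-R40A against hht2-G44A and 12 to 17 in hhf2-V81A against hhf2-K44A (19). The cause of these shifts was not tested. No background subtraction, print-tip loess, dim probes left out, chromosomes centred and both controls pooled kept each count within 1.5 times.

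With chromosomes centred, 4 log2 fold changes reversed: MET2 (-0.0346) and MET4 (-0.0467) in hhf2-K44A, and MET2 (-0.28) and DUG3 (-0.0255) in hhf2-V81A. Of the 93 calls, 50 were kept without each of the 4 arrays in turn and 44 under every alternative; 28 were lost with no replicate block and 21 with only the 4 arrays. With 2 cultures per strain, small changes rest on the pooled spread of all 22 arrays, and dim probes such as SUL1 give only bounds.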
